A study of Mus musculus with 5 samples.

Results

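Genes of the Hippo effector arm were followed in single-cell libraries of sorted mouse liver cells. They were taken as a fixed list of 10 genes out of the 31053 genes in the deposited tables. Yap1 and Wwtr1 (which encodes TAZ) are the coactivators, Tead1, Tead2, Tead3 and Tead4 are the DNA-binding partners, and Ctgf, Cyr61, Ankrd1 and Amotl2 are the targets. They were chosen by name, by no threshold on a value.

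Hippo signaling is a kinase cascade in which MST and LATS kinases phosphorylate YAP and TAZ, which are then held in the cytosol or degraded. Unphosphorylated YAP and TAZ enter the nucleus and, lacking a DNA-binding domain of their own, act on genes through the TEAD factors. In liver the pathway is known for its part in organ size, in bile duct cells, and in the conversion of hepatic stellate cells, the vitamin A-storing pericytes of the sinusoid, into contractile cells rich in matrix. A level of Yap1 or Wwtr1 mRNA does not give the phosphorylation or location of the protein.

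All animals were male Rosa26mTmG;Col1a1-Cre mice on the C57BL/6J background, in which Cre driven by the Col1a1 promoter switches membrane Tomato to GFP. The disease groups received diethylnitrosamine (DEN, 10 mg/kg) at 2 weeks of age and, from 6 weeks, 5 months of a liquid Western diet with 3.5% ethanol (WAD). The control groups received saline and chow over the same times. Non-parenchymal cells were sorted by GFP (Col1a1) and by vitamin A autofluorescence (VitA) into VitA+Col1a1+ and VitA-Col1a1+ libraries from both treatments, and into 1 library labelled VitA-Col1a1- from DEN+WAD. Every group was 1 library, so differences between groups are given with no p-value and no check against replicates, and all intervals are 95% intervals for counting error only. The number of animals behind a library is not given in the sources used here, and a gate on Col1a1-driven GFP marks cells that have used the promoter at any time.

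The 5 libraries held 259 to 10481 cells and 6145748 to 149936344 UMIs (unique molecular identifiers, 1 per captured transcript), and pairs of libraries shared 0 to 21 cell barcodes. The VitA+Col1a1+ chow library, with 259 cells, was the smallest. Stellate markers were present in every library, with 13 of 13 genes above 3 UMIs and a summed level of 41549 to 45560 UMIs per 1000000 UMIs (CPM) in the VitA+ gate and 11942 to 24162 CPM elsewhere. The library labelled VitA-Col1a1- held Col1a1 at 1062 CPM, and 37.3% of its cells fell in mesenchymal-like clusters, so no direction is drawn from its label. Because sums over cells were compared, fewer cells of a type and less RNA per cell cannot be told apart.

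The members lie on 7 mouse chromosomes in the GENCODE M21 annotation of GRCm38, all as protein-coding genes. Yap1 (ENSMUSG00000053110) lies at chr9:7931999-8004596 on the minus strand and Wwtr1 (ENSMUSG00000027803) at chr3:57455649-57575910 on the minus strand. The TEAD genes are Tead1 (ENSMUSG00000055320, chr7:112679318-112906807, plus), Tead2 (ENSMUSG00000030796, chr7:45215753-45233644, plus), Tead3 (ENSMUSG00000002249, chr17:28331671-28350817, minus) and Tead4 (ENSMUSG00000030353, chr6:128224288-128300823, minus). The targets are Ctgf (ENSMUSG00000019997, chr10:24595442-24598683, plus), Cyr61 (ENSMUSG00000028195, chr3:145646976-145649981, minus), Ankrd1 (ENSMUSG00000024803, chr19:36111961-36120099, minus) and Amotl2 (ENSMUSG00000032531, chr9:102716672-102733418, plus).

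The 250 bases before each RefSeq transcription start were searched on both strands for GGAATG, the core letters of the TEAD motif, whose reverse complement is CATTCC. RefSeq promoter entries on GRCm38.p6 were matched for 7 of the 10 members, among them Cyr61 under its newer symbol Ccn1. Ctgf, Tead1 and Tead4 had no entry in the table. Of the matched members, 6 held at least 1 match, in 8 of their 10 windows, and the exception was Tead2. Among all 32851 windows of this length, 4153 (12.6%) held the letters and 1.02% held them more than once. The matched target genes are shown because their levels are the readouts followed below, and capitals mark the match. For Cyr61 the whole window at chr3:145649986-145650235 on the minus strand is printed, with the match 103 bases before the start. For Ankrd1 (minus strand) the 30 bases around the matches 210 and 123 bases before the start are printed, at chr19:36120037-36120066 and chr19:36119950-36119979, and for Amotl2 (plus strand) those around the match 65 bases before the start, at chr9:102717727-102717756. The Ankrd1 and Amotl2 stretches lie within annotated GENCODE exons of the same genes, and the Cyr61 window lies in none. A match is a description of letters and was not shown here to be bound.
Cyr61: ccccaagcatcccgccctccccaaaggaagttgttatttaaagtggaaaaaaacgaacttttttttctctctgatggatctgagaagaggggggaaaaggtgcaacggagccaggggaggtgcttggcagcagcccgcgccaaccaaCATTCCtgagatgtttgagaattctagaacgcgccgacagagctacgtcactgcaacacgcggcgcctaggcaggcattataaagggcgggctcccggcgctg
Ankrd1, far match: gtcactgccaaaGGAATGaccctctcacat
Ankrd1, near match: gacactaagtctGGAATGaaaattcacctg
Amotl2: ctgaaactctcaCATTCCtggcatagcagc

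Transcripts of both coactivators were found in all 5 libraries, and they differed in how they followed the sort. Yap1, the founding effector, was at 59.7 CPM (interval 58.5 to 61) in VitA+Col1a1+ DEN+WAD, 58 CPM (55.9 to 60.3) in VitA-Col1a1+ DEN+WAD, 75.5 CPM (68.8 to 82.7) in VitA+Col1a1+ chow, 67.9 CPM (63.8 to 72.3) in VitA-Col1a1+ chow and 42.1 CPM (40.8 to 43.3) in the library labelled VitA-Col1a1-. Within each treatment the Yap1 intervals of the VitA+ and VitA- gates overlapped. Wwtr1, its paralog, was at 68.2, 129, 73.1, 154 and 138 CPM in the same order. Wwtr1 was thus higher in both VitA- gates than in both VitA+ gates, and the VitA+ intervals (66.9 to 69.6 in DEN+WAD, 66.5 to 80.1 in chow) overlapped each other.

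Of the DNA-binding partners, Tead1 was at 124 and 117 CPM in the VitA+ and VitA- gates of DEN+WAD, 140 and 168 CPM in those of chow, and 117 CPM in the library labelled VitA-Col1a1-. The VitA-Col1a1+ chow library was the highest for Tead1, and the intervals of VitA-Col1a1+ DEN+WAD and the labelled VitA-Col1a1- library overlapped. Tead2 was at 8.4, 13.2, 11.9, 16.3 and 9.24 CPM in the order VitA+ DEN+WAD, VitA- DEN+WAD, VitA+ chow, VitA- chow and labelled VitA-Col1a1-, and Tead3 at 10.4, 11.5, 13, 20.5 and 10.8 CPM. For Tead3, VitA-Col1a1+ chow stood above the other 4 libraries, and among those 4 the VitA+ chow interval (10.3 to 16.2) overlapped all others. Tead4, with 13 to 368 UMIs per library, was at 1.95, 2.23, 2.12, 1.6 and 3.48 CPM, and its level in VitA+ chow rested on 13 UMIs with an interval of 1.13 to 3.62.

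The 4 targets did not share 1 order over the libraries. Ctgf (CCN2), a secreted matricellular protein that promotes fibrosis, was at 309 CPM (306 to 311) and 848 CPM (840 to 856) in the VitA+ and VitA- gates of DEN+WAD. In chow it was at 155 CPM (146 to 165) and 616 CPM (603 to 628), and in the library labelled VitA-Col1a1- at 617 CPM (612 to 621). Ctgf was therefore lowest in both VitA+ libraries, and the intervals of VitA- chow and labelled VitA-Col1a1- overlapped. Cyr61 (CCN1), a related matricellular protein, was at 1570 and 1648 CPM in DEN+WAD, 1265 and 1008 CPM in chow, and 381 CPM in the library labelled VitA-Col1a1-, with no overlap between any of the intervals.

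Ankrd1, a nuclear and sarcomeric ankyrin-repeat protein, was at 9.02 and 34.5 CPM in the VitA+ and VitA- gates of DEN+WAD, 66.6 and 34.6 CPM in chow, and 98.5 CPM in the library labelled VitA-Col1a1-. Its VitA- values in both treatments overlapped. Amotl2, an angiomotin-family protein that binds YAP, was at 132 and 139 CPM in DEN+WAD, 181 and 195 CPM in chow, and 88.2 CPM in the library labelled VitA-Col1a1-. Amotl2, like Yap1, was lower in both DEN+WAD libraries than in both chow libraries.

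**Figure D1:**
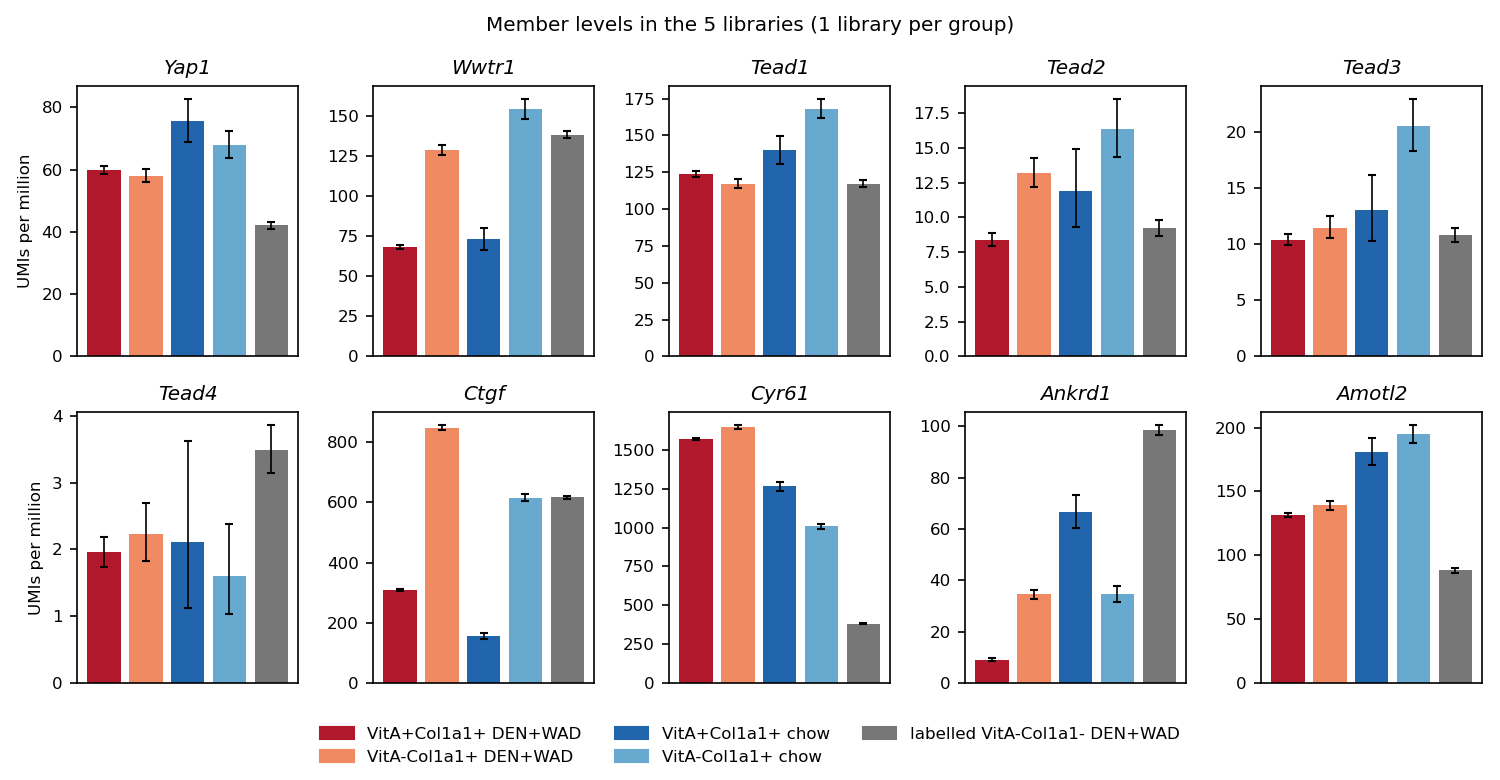
Levels of the 10 members in CPM in the 5 libraries, 1 library per group, as bars from 0 with 95% Poisson intervals for counting error. Ctgf and Wwtr1 stand higher in the VitA- libraries than in the VitA+ libraries, Cyr61 is at 381 in the library labelled VitA-Col1a1- against 1008 or more elsewhere, and Ankrd1 is at 66.6 in VitA+Col1a1+ chow.

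The first comparison asked how the members differed between DEN+WAD and chow in each Col1a1+ gate. Most members were close to equal or somewhat lower in DEN+WAD, and Ctgf and Cyr61 were higher in both gates. A gene was called when it was at least 2-fold higher or lower with an interval that excluded 1, among genes with a mean of at least 2 CPM. In the VitA+ gate all 10 members passed this minimum, 0 were called higher, against a background of 1.85% of the 11015 genes, and 1 was called lower, against 4.48%. In the VitA- gate 9 members passed (Tead4 did not), and 0 were called in either direction, against 5.33% higher and 5.94% lower of 11746 genes. The members had a median log2 ratio of -0.25 in the VitA+ gate and -0.26 in the VitA- gate, beside medians of -0.08 and -0.03 over all genes that passed.

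Ctgf was 1.99-fold higher in DEN+WAD in the VitA+ gate (1.86 to 2.12), just inside the 2-fold limit, and 1.38-fold higher in the VitA- gate (1.35 to 1.41). Scaling by TMM or by median-of-ratios factors put the VitA+ ratio past the limit. Cyr61 was 1.24-fold higher in the VitA+ gate (1.21 to 1.27) and 1.63-fold higher in the VitA- gate (1.61 to 1.66). Amotl2 went the other way, with DEN+WAD/chow ratios of 0.726 (0.683 to 0.772) and 0.714 (0.684 to 0.746). The targets therefore split by direction in both gates.

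The coactivators were lower in DEN+WAD by less than the fold limit. Yap1 had ratios of 0.791 (0.721 to 0.871) and 0.854 (0.795 to 0.919) in the VitA+ and VitA- gates, and Wwtr1 had ratios of 0.934 (0.85 to 1.03) and 0.834 (0.795 to 0.876). The Wwtr1 interval in the VitA+ gate included 1. The DEN+WAD/chow ratios of Tead1 were 0.885 and 0.697, of Tead2 0.707 and 0.808, and of Tead3 0.8 and 0.559, in the VitA+ and VitA- gates. Under TMM factors, which moved the median of all genes in the VitA+ gate from -0.08 to 0.11 on the log2 scale, the Wwtr1, Tead1 and Tead4 ratios there were just above 1 rather than below it.

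Ankrd1 was the 1 member called, lower in VitA+Col1a1+ DEN+WAD at 0.135 of chow (0.121 to 0.152), and it was 0.995 of chow in the VitA- gate (0.901 to 1.1). The VitA+ value rested on few cells. In VitA+Col1a1+ chow, 7 of 259 cells had an Ankrd1 UMI, 1 cell held 217, and the 3 cells with the most held 99% of the 409 UMIs. A cluster of 29 cells held 405 of these UMIs, at 517 CPM. It was left unnamed because it carried the stellate markers (Lrat at 2160 CPM) while Spp1, Krt8, Alb and Krt18, genes of bile duct cells and hepatocytes, led its genes.

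In mesenchymal-like cells (9009 in DEN+WAD, 218 in chow) Ankrd1 had 1030 UMIs against 4 in the VitA+ gate, or 7.78 against 0.787 CPM. Over all cells of VitA+Col1a1+ DEN+WAD, 238 of 10481 had an Ankrd1 UMI, and the 105 with the most held 89.1% of the UMIs. The counting intervals take no account of such bunching. In mesenchymal-like cells the ratio was 9.89 (3.85 to 36.4), opposite in direction to that over all cells. It was also above 1, at log2 values of 3.20 in cells with a Lrat UMI and 3.11 in cells with no Epcam, Krt19 or Krt7 UMI, the latter chosen after seeing the data. In mesenchymal-like cells of the VitA- gate Ankrd1 was at 28.7 CPM in DEN+WAD and 18.7 CPM in chow, a ratio of 1.54 (1.32 to 1.79). The chow value leaves out an unnamed cluster of 62 cells (205 Ankrd1 UMIs, 141 CPM) and another of 42 cells (99 UMIs, 71.5 CPM). Both carried mesenchymal genes, with Col1a1 at 2088 and 4977 CPM, so the direction of this ratio depends on leaving them out. Tead4, under the minimum of 2 CPM in mesenchymal-like cells, had a ratio of 1.33 in the VitA+ gate with an interval that included 1 (0.635 to 3.34, on 242 against 7 UMIs). The remaining members kept close to their values over all cells, with Ctgf at 1.96 and 1.35, Cyr61 at 1.19 and 1.71, Yap1 at 0.803 and 0.851 and Tead3 at 0.836 and 0.626 in the VitA+ and VitA- gates. In stellate-like cells of the VitA- gate alone (1644 in DEN+WAD, 254 in chow), Cyr61 was 2.45-fold higher in DEN+WAD (1947 against 794 CPM). Ankrd1 was 5.08-fold higher there (2.63 to 11.2), at 8.24 against 1.62 CPM on 245 against 9 UMIs. The unnamed chow cluster of 62 cells, which held Lrat at 811 CPM and 205 Ankrd1 UMIs, is not among these cells.

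**Figure D2:**
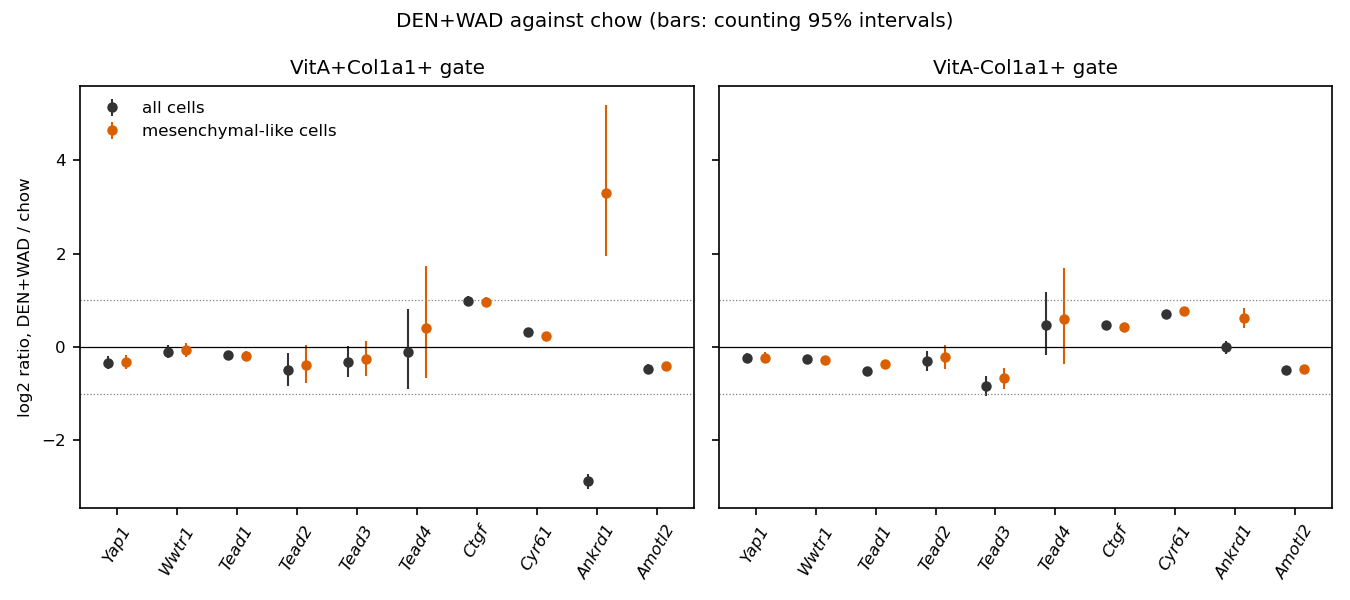
Log2 ratio of DEN+WAD to chow for each member in the VitA+Col1a1+ gate (left) and the VitA-Col1a1+ gate (right), over all cells (black) and over mesenchymal-like cells (orange), with 95% counting intervals and dotted lines at the 2-fold limit. Ankrd1 in the VitA+ gate lies at -2.88 over all cells and at 3.31 in mesenchymal-like cells, each past the 2-fold limit. The Tead4 intervals include 0 in both sets of cells.

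Acta2 and Col1a1, the marker genes of activated stellate cells, were themselves not parallel between the gates. Acta2 was at 108 CPM in DEN+WAD against 10.4 CPM in chow in the VitA+ gate, and at 634 against 1299 CPM in the VitA- gate. Myh11, a smooth muscle myosin, was at 83.6 against 457 CPM in the VitA- gate, and the 8 smooth muscle markers summed to 1769 against 3375 CPM there. The 11 portal fibroblast markers summed to 1656 against 4355 CPM in that gate. Portal fibroblast-like cells made up 0.879% of its cells in DEN+WAD and 29% in chow. The part of this difference in cell makeup in the DEN+WAD/chow ratios was not tested. The 16 immediate-early and heat-shock genes, several of which respond to tissue dissociation, summed to 33249 against 37881 CPM in the VitA+ gate and 25722 against 19521 CPM in the VitA- gate. Their part in the values of the members was not tested.

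The second comparison set the VitA- gate against the VitA+ gate within each treatment, and shares its libraries with the first. Ctgf was 2.75-fold higher in VitA- in DEN+WAD (2.71 to 2.79) and 3.97-fold higher in chow (3.71 to 4.24). Wwtr1 was 1.88-fold (1.82 to 1.94) and 2.11-fold (1.9 to 2.34) higher. In DEN+WAD 2 of 10 members, Ctgf and Ankrd1, were called higher and 0 lower, against backgrounds of 10.7% and 1.71%. In chow 2 of 9, Wwtr1 and Ctgf, were called higher and 0 lower, against 12.5% and 5.75%. Both sets of calls stand beside a background in which many genes were higher in the VitA- gate.

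Ankrd1 was 3.82-fold higher in the VitA- gate in DEN+WAD (3.55 to 4.11) and 0.52 of the VitA+ level in chow (0.456 to 0.593), where the few cells described above weigh on the VitA+ value. In mesenchymal-like cells it was higher in VitA- in both, at 3.69-fold in DEN+WAD and 23.7-fold (9.14 to 88) in chow, the latter on 215 against 4 UMIs. In stellate-like cells of DEN+WAD the Ankrd1 ratio was only 1.2, at 8.24 against 6.89 CPM. In those of chow it was 3.27 with an interval that included 1 (0.678 to 31.1, on 9 against 2 UMIs). Smooth muscle-like cells held 193 of the 215 Ankrd1 UMIs in mesenchymal-like cells of VitA- chow. Yap1 was 0.972 (0.931 to 1.01) in DEN+WAD and 0.9 (0.806 to 1.01) in chow, and both intervals included 1. Endothelial markers summed to 2138 CPM in VitA- DEN+WAD against 310 CPM in VitA+ DEN+WAD, with 10 of 10 genes above 3 UMIs in both, and portal fibroblast markers to 1656 against 110 CPM. In mesenchymal-like cells, which leave out the endothelial-like but keep the portal fibroblast-like cells, the Ctgf ratios were 2.88 and 4.19 and the Wwtr1 ratios 1.73 and 2.02 in DEN+WAD and chow. In stellate-like cells, which leave out the portal fibroblast-like clusters, the Ctgf ratios were 3.63 and 4.59 and the Wwtr1 ratios 1.69 and 1.8. Beyond this the part of portal fibroblasts was not tested. Immediate-early and heat-shock genes summed to 19521 CPM in VitA- chow against 37881 CPM in VitA+ chow, the same direction as Cyr61 (0.797), and their part in its value was not tested.

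The third comparison grouped the cells of each library by whether Acta2 and Col1a1 were detected. Cells with at least 5000 UMIs were thinned at random to 5000, called positive at 1 UMI, and their levels were read from all of their UMIs. Cells with both numbered 405 of 10213 in VitA+Col1a1+ DEN+WAD, 509 of 2572 in VitA-Col1a1+ DEN+WAD, 6 of 254 in VitA+Col1a1+ chow, 253 of 643 in VitA-Col1a1+ chow and 2179 of 7323 in the library labelled VitA-Col1a1-. The VitA+ chow library, with under 20 such cells, was given no level for them. Classes of 1 library share its free RNA, and their cells are not replicates. The classes were not matched in depth. Cells with both had a median of 19374 UMIs against 12889.5 with neither in VitA+Col1a1+ DEN+WAD, and 19634 against 14568.5 in VitA-Col1a1+ DEN+WAD. These medians were 21769 against 18169.5 in VitA-Col1a1+ chow and 14334 against 9538 in the library labelled VitA-Col1a1-.

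Ctgf was higher in cells with both than in cells with neither in each of the 4 libraries. The ratio was 3.46 (3.37 to 3.55) in VitA+Col1a1+ DEN+WAD, 4.01 (3.87 to 4.14) in VitA-Col1a1+ DEN+WAD, 2.48 (2.17 to 2.85) in VitA-Col1a1+ chow and 8.03 (7.82 to 8.24) in the library labelled VitA-Col1a1-. Tead3 had ratios of 1.66 (1.38 to 1.98), 2.82 (2.2 to 3.64), 6.97 (2.67 to 25.9, on 163 against 4 UMIs) and 10.9 (8.67 to 13.8) in the same order. Members called higher in cells with both were 2 in VitA+Col1a1+ DEN+WAD (Ctgf and Ankrd1), beside a background of 6.27%, and 2 in VitA-Col1a1+ DEN+WAD (Tead3 and Ctgf), beside 8.6%. They were 2 in VitA-Col1a1+ chow (Tead3 and Ctgf), beside 11.5%, and 5 in the library labelled VitA-Col1a1- (Tead1, Tead3, Ctgf, Cyr61 and Ankrd1), beside 13.5%. Tead4 was called lower in VitA-Col1a1+ DEN+WAD (8 against 56 UMIs) and in VitA-Col1a1+ chow (5 against 8 UMIs), the 1 member in each, beside 12.3% and 16%, and 0 members were called lower in VitA+Col1a1+ DEN+WAD and the labelled VitA-Col1a1- library, beside 2.49% and 18.4%.

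The class with neither gene was not of 1 cell type. Endothelial-like cells made up 41.4% of it in the VitA- gate of DEN+WAD, 57.7% in that of chow and 52.3% in the library labelled VitA-Col1a1-, and the class was therefore also read in mesenchymal-like cells alone. There the Ctgf ratio of cells with both to cells with neither was 3.38 (3.29 to 3.47) in VitA+Col1a1+ DEN+WAD, 3.73 (3.57 to 3.89) in VitA-Col1a1+ DEN+WAD and 4.72 (4.34 to 5.14) in the library labelled VitA-Col1a1-. The Wwtr1 ratios were 1.57 (1.45 to 1.69), 1.85 (1.67 to 2.04) and 1.69 (1.45 to 1.99), and those of Tead3 were 1.63 (1.35 to 1.95), 1.65 (1.27 to 2.17) and 1.81 (1.21 to 2.85). Ctgf and Ankrd1 were the 2 members called higher in each of these libraries, beside backgrounds of 6.72%, 9.26% and 5.71%, and 0 were called lower, beside 1.54%, 3.66% and 3.93%.

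Ankrd1 had the highest ratios of the members in these cells. Over all cells its ratio of both to neither was 14.8 (12.9 to 17) in VitA+Col1a1+ DEN+WAD, 1.52 (1.36 to 1.69) in the VitA- gate of DEN+WAD, 0.767 (0.611 to 0.971) in that of chow and 15.6 (14.5 to 16.9) in the library labelled VitA-Col1a1-. In mesenchymal-like cells the ratios were 31.4 (26.1 to 38) in VitA+Col1a1+ DEN+WAD, 126 (48.8 to 462, on 728 against 4 UMIs) in VitA-Col1a1+ DEN+WAD and 29.3 (18.7 to 48.7) in the library labelled VitA-Col1a1-. Its level in VitA+Col1a1+ DEN+WAD was 1.95 CPM with neither gene, 5.33 CPM with Col1a1 only, 40.4 CPM with Acta2 only and 61.1 CPM with both. In VitA-Col1a1+ DEN+WAD these levels were 0.566, 7.55, 214 and 71.1 CPM, and in the library labelled VitA-Col1a1- 9.98, 5.89, 271 and 292 CPM. In each of these libraries the 2 classes with Acta2 were above the 2 without it, and in both Col1a1+ libraries the class with Col1a1 only was also above the class with neither, with intervals apart.

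Cyr61 and Yap1 showed no such step in the same cells. The Cyr61 ratio of both to neither was 1.01 (0.995 to 1.03) in VitA+Col1a1+ DEN+WAD, 0.993 (0.97 to 1.02) in VitA-Col1a1+ DEN+WAD and 0.828 (0.784 to 0.876) in the library labelled VitA-Col1a1-, where it had been 4.15 over all cells. The Yap1 ratios were 0.866 (0.784 to 0.954), 1.08 (0.951 to 1.23) and 0.883 (0.732 to 1.07). Amotl2 was at 0.858, 1.39 and 1.33, and Tead1 at 1.37, 1.18 and 1.18.

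In VitA-Col1a1+ chow only 19 mesenchymal-like cells had neither gene, so cells with both were set against the 293 with Col1a1 only. Ctgf was 0.834 of that level (0.795 to 0.876) and Cyr61 0.593 (0.569 to 0.619), while Ankrd1 was 94.9-fold higher (36.5 to 352, on 210 against 4 UMIs) and Tead3 1.61-fold higher (1.24 to 2.09). For Ctgf the same ratio was 2.8 in VitA+Col1a1+ DEN+WAD and 1.39 in VitA-Col1a1+ DEN+WAD, so the chow library differed from them in direction, and the difference was not tested. Smooth muscle-like cells were present in VitA-Col1a1+ chow (71 cells), where they held Acta2 at 7713 CPM.

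**Figure D3:**
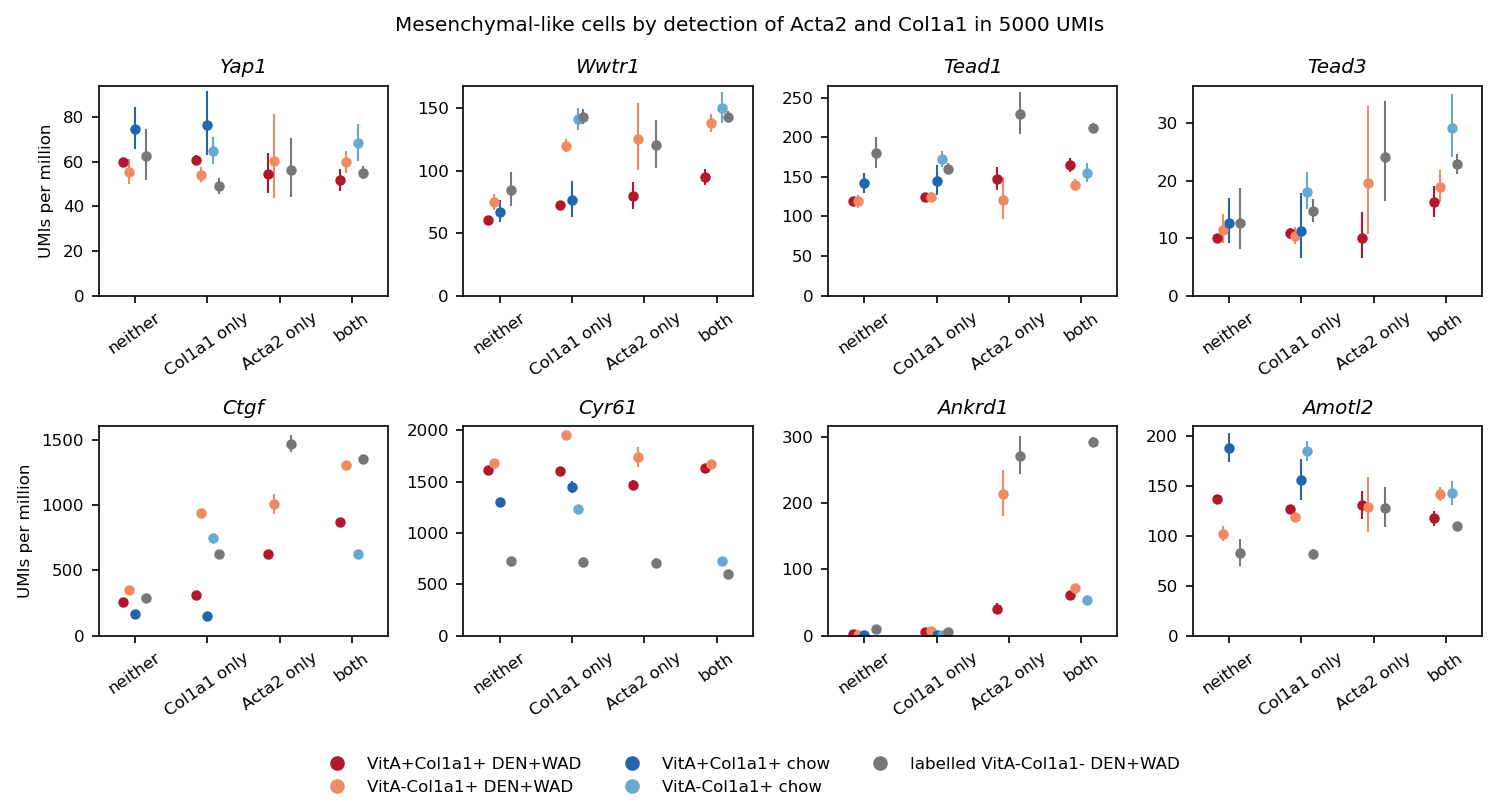
Levels of 8 members in CPM in mesenchymal-like cells of each library with neither, 1 or both of Acta2 and Col1a1 detected in 5000 UMIs, as points with 95% counting intervals, where a class held at least 20 cells. Ankrd1 is high in the classes with Acta2 (40.4 to 292), Ctgf is higher with both than with neither in the DEN+WAD libraries, and Yap1 stays between 49 and 76.4 throughout.

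The same cells were split by the number of Acta2 UMIs among 5000. Ankrd1 went from 3.2 CPM at 0 Acta2 UMIs to 175 CPM at 10 or more in VitA+Col1a1+ DEN+WAD, from 5.57 to 178 CPM in VitA-Col1a1+ DEN+WAD, from 0.537 to 105 CPM in VitA-Col1a1+ chow and from 6.37 to 571 CPM in the library labelled VitA-Col1a1-. Between 5 and 9 Acta2 UMIs it was at 34.7, 35.9, 6.11 and 80.2 CPM, so most of the step lay in the highest bin in all 4 libraries.

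Ctgf went from 276 to 1400 CPM between the same bins in VitA+Col1a1+ DEN+WAD and from 583 to 1947 CPM in the library labelled VitA-Col1a1-. In VitA-Col1a1+ DEN+WAD Ctgf was at 773 CPM at 0, 1551 CPM at 5 to 9 and 1388 CPM at 10 or more. In VitA-Col1a1+ chow it was at 720 CPM at 0, 311 CPM at 5 to 9 and 589 CPM at 10 or more. The highest Acta2 bin of Ctgf was thus above the lowest in the DEN+WAD libraries and below it in chow. Tead3 was higher in the highest bin in all 4 libraries, at 20.6 against 10.3, 25.5 against 10.7, 39.4 against 17.3 and 30 against 14.5 CPM.

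Cyr61 was lower at 10 or more Acta2 UMIs than at 0 in all 4 libraries. It was at 1423 against 1607 CPM in VitA+Col1a1+ DEN+WAD, 1120 against 1875 CPM in VitA-Col1a1+ DEN+WAD, 738 against 1243 CPM in VitA-Col1a1+ chow and 641 against 716 CPM in the library labelled VitA-Col1a1-. Myh11 also moved along these bins, from 18.7 to 281, 20.5 to 606, 72.1 to 2231 and 26.7 to 541 CPM, and the part of smooth muscle cells in the Ankrd1 and Tead3 values was not tested.

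**Figure D4:**
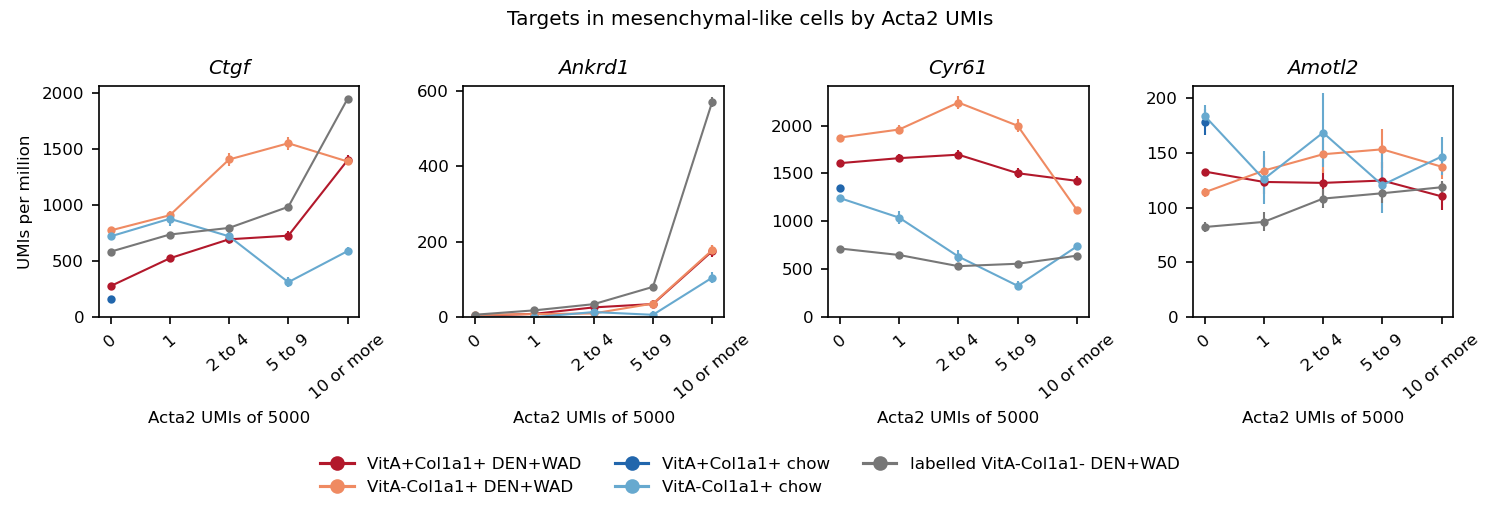
Levels of the 4 targets in CPM against the number of Acta2 UMIs among 5000 in mesenchymal-like cells, with 95% counting intervals and 1 line per library, for bins of at least 20 cells. Ankrd1 is highest in the bin of 10 or more in all 4 libraries that fill the bins (105 to 571), while Cyr61 in that bin is below its level at 0.

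Cell classes were then compared within libraries. Each library was clustered by itself without the members, their pathway lists, Acta2 and Col1a1, and classes were named from fixed markers. In the library labelled VitA-Col1a1-, Wwtr1 was at 302 CPM (2363 endothelial-like cells) against 140 CPM (3678 mesenchymal-like cells), a ratio of 2.16 (2.09 to 2.24), while Yap1 was at 57.6 against 53.5 CPM. In VitA-Col1a1+ DEN+WAD the Wwtr1 levels were 204 against 116 CPM, a ratio of 1.75 (1.65 to 1.87), and Yap1 was at 69.6 against 56.1 CPM. Wwtr1 was thus above mesenchymal-like cells in endothelial-like cells of both libraries, with a smaller difference for Yap1.

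The TEAD genes differed between these classes in opposite directions. Tead3 was at 0.761 CPM in endothelial-like against 20 CPM in mesenchymal-like cells in the library labelled VitA-Col1a1-, a ratio of 0.038 (0.0207 to 0.0641), and at 0.466 against 13.3 CPM in VitA-Col1a1+ DEN+WAD on 3 against 478 UMIs. Tead1 was lower as well, at 0.324 (0.305 to 0.345) and 0.411 (0.367 to 0.459) of the mesenchymal-like level. Tead4 was higher, at 2.63-fold (2.05 to 3.38) and 4.63-fold (3.01 to 7.06). Tead2 differed between the libraries, at 1.58 (1.36 to 1.83) and 0.812 (0.626 to 1.04), the latter with an interval that included 1.

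Among the targets, the endothelial-like to mesenchymal-like ratio of Cyr61 was 0.177 and 0.189, of Ctgf 0.312 and 0.268, and of Ankrd1 0.0141 and 0.0325, in the library labelled VitA-Col1a1- and in VitA-Col1a1+ DEN+WAD. Amotl2 was the 1 target above the mesenchymal-like level, at 1.62 and 1.89. Members called higher in endothelial-like cells were 2 (Wwtr1 and Tead4) in the library labelled VitA-Col1a1-, beside a background of 16%, and 1 (Tead4) in VitA-Col1a1+ DEN+WAD, beside 21%. The 5 called lower in each were Tead1, Tead3, Ctgf, Cyr61 and Ankrd1, beside 16.6% in both.

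Among the named classes Ankrd1 was highest in cholangiocyte-like cells, at 1013 CPM in 73 cells of the library labelled VitA-Col1a1- and 1122 CPM in 23 cells of VitA+Col1a1+ DEN+WAD. These 23 cells held 21.9% of the Ankrd1 UMIs of their library. In VitA-Col1a1+ DEN+WAD an unnamed cluster of 115 cells, led by Spp1 and Alb, held 36.4% of the Ankrd1 UMIs at 788 CPM. Cyr61 was also high in the cholangiocyte-like cells, at 1302 and 3358 CPM. In VitA-Col1a1+ chow, smooth muscle-like cells held Ankrd1 at 138 CPM against 1.62 CPM in stellate-like cells, and Tead3 at 47.3 against 17.5 CPM.

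In the library labelled VitA-Col1a1- the immune classes were below mesenchymal-like cells by different amounts. In macrophage-like cells (1009 cells) Yap1 was at 3.46 CPM, Wwtr1 at 10.7 CPM, Tead1 at 11.2 CPM, Ctgf at 44.9 CPM and Cyr61 at 33.8 CPM, 0.0412 to 0.0766 of the mesenchymal-like levels. Monocyte-like cells (160 cells) were at 3.88 CPM for Yap1 and 34.9 CPM for Ctgf. T or NK-like cells (186 cells) were nearer to mesenchymal-like cells, at 0.3 of their level for Yap1 (0.174 to 0.481, on 17 UMIs), 0.27 for Wwtr1 and 0.213 for Tead1. At a median of 4359.5 UMIs they also held Col1a1 at 493 CPM, Lrat at 132 CPM and Acta2 at 133 CPM. Col1a1 was at 80.6 CPM in the macrophage-like cluster of 928 cells. The part of mesenchymal RNA carried into these barcodes was not tested. Portal fibroblast-like and stellate-like cells of that library were close for Yap1, at 46.5 and 50.6 CPM, and apart for Ctgf, at 998 and 710 CPM.

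**Figure D5:**
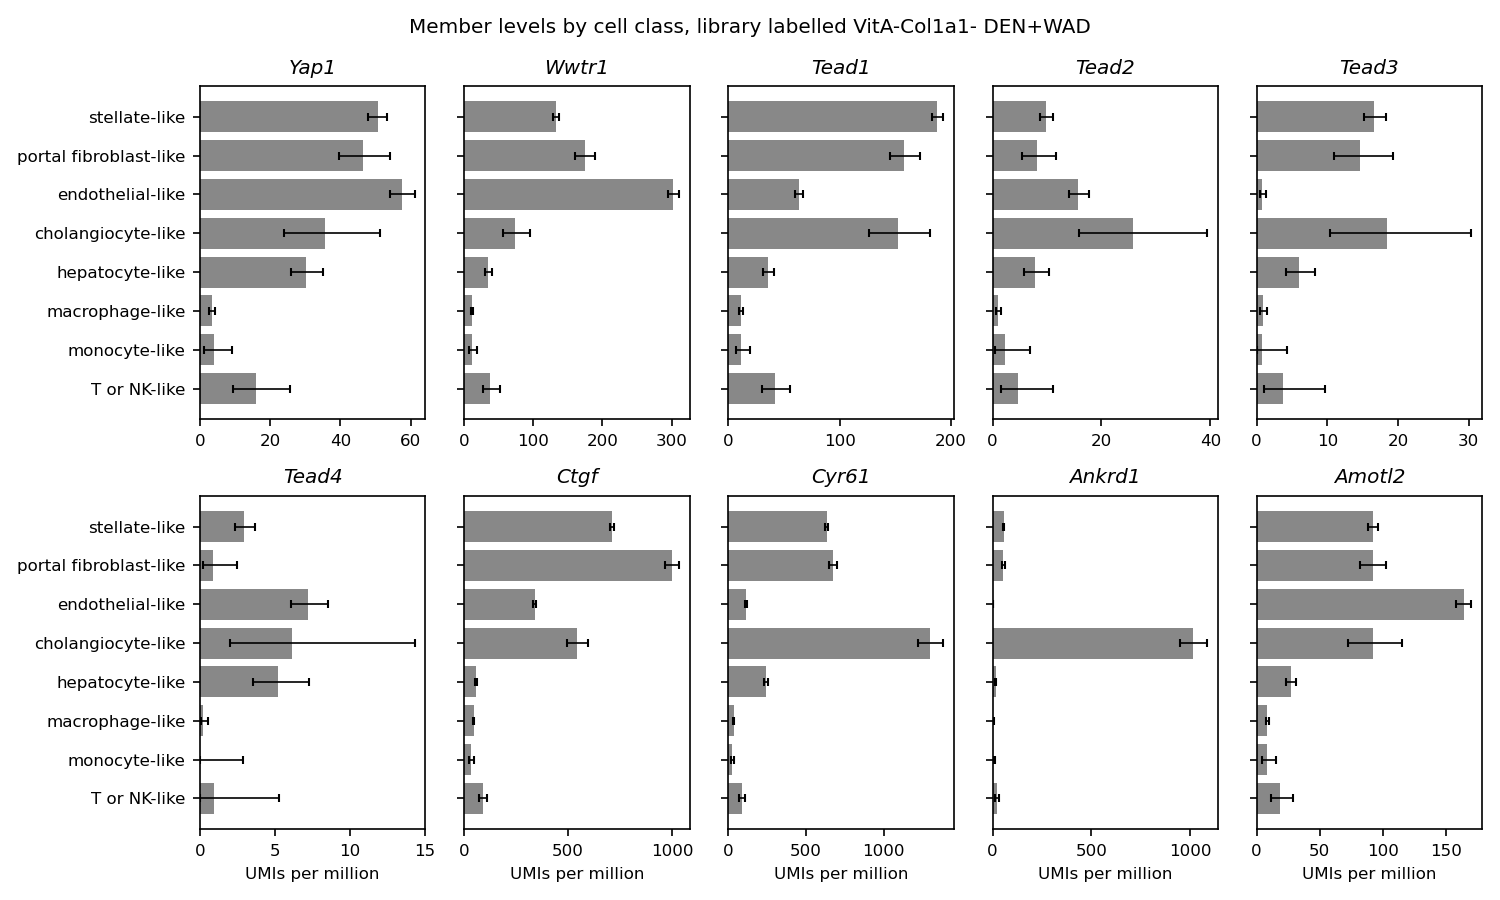
Levels of the 10 members in CPM by cell class in the library labelled VitA-Col1a1- (classes of at least 50 cells), as bars from 0 with 95% counting intervals. Wwtr1 is at 302 in endothelial-like cells, Tead3 at 0.761 there, Ankrd1 at 1013 in cholangiocyte-like cells, and macrophage-like and monocyte-like cells are low for every member.

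Within mesenchymal-like clusters the spread of a member depended on the gene. Over the 13 such clusters of VitA+Col1a1+ DEN+WAD, Yap1 ran from 31.2 to 70.7 CPM (from 51.8 CPM without the lowest cluster, of 29 cells), Tead1 from 100.2 to 161 CPM and Ctgf from 175 to 799 CPM. Over the 9 of VitA-Col1a1+ DEN+WAD, Ctgf ran from 65.6 to 2060 CPM and Cyr61 from 1066 to 3227 CPM, and the highest of both was the same cluster of 149 cells. Over the 6 of the library labelled VitA-Col1a1-, Ankrd1 ran from 7.4 to 538 CPM and Yap1 from 45.7 to 63.4 CPM. In the VitA-Col1a1+ libraries several of the extremes came from clusters of 12 to 27 cells.

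Detection per cell was read at a fixed depth of 5000 UMIs. Ctgf was detected in 46.2% of mesenchymal-like cells in VitA+Col1a1+ DEN+WAD (unthinned 64.1%), 66.1% in the VitA- gate of DEN+WAD (81.9%), 35.2% in VitA+Col1a1+ chow (61%), 62% in VitA-Col1a1+ chow (81.5%) and 71.4% in the library labelled VitA-Col1a1- (80.8%). In that last library 8.44% of macrophage-like cells had a Ctgf UMI (20% unthinned), at a median of 20554 UMIs against 12512 in mesenchymal-like cells. Free RNA was not measured, and such values differed between immune classes. Ctgf was at 90.7 CPM in T or NK-like cells and 46 CPM in the macrophage-like cluster of 928 cells. Ankrd1 was detected in 1.13%, 3.83%, 0.939%, 2.98% and 18.8% of mesenchymal-like cells in the same order (2.37%, 8.65%, 1.88%, 5.37% and 26.8% unthinned), and in 0.987% of macrophage-like cells of that library. In the VitA+ gate the mesenchymal-like Ankrd1 shares of DEN+WAD and chow thus lay closer together than the levels (7.78 against 0.787 CPM). The macrophage-like shares apply to their own library only, and the Col1a1+ libraries held no such class.

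Cells with an Ankrd1 UMI held Ctgf more often than cells without. Among mesenchymal-like cells the share with Ctgf was 74.3% of 101 cells (64.6% to 82.4%) against 45.8% of 8860 in VitA+Col1a1+ DEN+WAD, and 76.7% of 73 cells (65.4% to 85.8%) against 65.7% of 1834 in VitA-Col1a1+ DEN+WAD. It was 88.4% of 644 cells (85.6% to 90.7%) against 67.5% of 2776 in the library labelled VitA-Col1a1-. In VitA-Col1a1+ DEN+WAD the interval for cells with Ankrd1 reached down to the share without it.

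Other genes of the pathway were read from lists of upstream regulators, cofactors and further targets. Over all genes, 1.85% were called higher and 4.48% lower in the VitA+ gate, and 5.33% and 5.94% in the VitA- gate. Of the 17 Hippo kinases and upstream regulators, 15 passed the minimum in the VitA+ gate, where 0 were called higher in DEN+WAD and 1 lower, with a median log2 ratio of -0.31. That gene was Dchs1, a giant cadherin upstream of the cascade, at 6.24 against 15.1 CPM (0.413, 0.333 to 0.516). In the VitA- gate 16 passed, 0 were called, and the median was -0.27. These medians were below those of all genes (-0.08 and -0.03), by less than the 2-fold limit.

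Of the 6 YAP- or TEAD-binding cofactors, 3 passed in the VitA+ gate with 0 called, and 4 passed in the VitA- gate with 1 called lower. This was Vgll3, a TEAD cofactor, at 44.5 against 91.4 CPM (0.487, 0.454 to 0.521). Of the 18 further YAP signature targets, 15 passed in the VitA+ gate with 1 called higher and 1 lower (median log2 ratio -0.20), and 16 passed in the VitA- gate with 1 higher and 2 lower (median -0.58). Myof, a membrane-repair ferlin, was 6.32-fold higher in VitA+ DEN+WAD (3.68 to 11.9, on 2003 against 13 UMIs). Igfbp3, an IGF-binding protein, was lower in both gates, at 0.478 (0.47 to 0.486) and 0.419 (0.414 to 0.424). In the VitA- gate F3, tissue factor, was at 0.417 (0.399 to 0.435) and Nuak2, an AMPK-related kinase, at 2.9 (2.19 to 3.9).

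Of the 16 immediate-early and heat-shock genes, all passed in both gates, with 0 called in the VitA+ gate and 3 called higher in the VitA- gate, where 5.33% of all genes were. Those were the heat-shock genes Hspa1a (4.09-fold), Hspa1b (4.06-fold) and Dnajb1 (2.84-fold), and reads of the near-identical Hspa1a and Hspa1b may be split between them. Of 7 collagens, 0 were called in the VitA+ gate (median log2 ratio 0.13) and 1, Col6a3 at 0.464, was called lower in the VitA- gate (median -0.76). The targets Ctgf and Cyr61 were thus higher in VitA-Col1a1+ DEN+WAD than in chow while all 7 collagens were lower there.

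Over 15 library-by-class profiles of at least 50 cells, the genes most like each coactivator and matricellular target were named by Pearson correlation of log2(CPM + 1). These profiles share libraries and were not matched in depth. Of 9160 genes, those nearest to Yap1 were Tceal9 (r = 0.976), Smim10l1 (0.971) and Lysmd3 (0.97), and those nearest to Wwtr1 were Capn2 (0.972), Sptbn1 (0.971) and Tcf7l1 (0.959). Nearest to Ctgf were Slc50a1 (0.96), Auts2 (0.937) and Myo1d (0.936), and nearest to Cyr61 were Trip6 (0.965), Zbtb20 (0.959) and Rhbdf1 (0.955). Among the members themselves, Yap1 was nearest to Amotl2 (r = 0.958), and Tead1 to Cyr61 (0.907), while Ankrd1 had r of at most 0.492 with any other member.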

How the data were processed

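Single-cell 3' libraries of FACS-sorted liver cells were made by the authors on the 10x Genomics platform, aiming at 10000 cells, and the labels differ on the kit version. The deposited tables hold unnormalized UMI counts of each gene in each barcode, which the authors made by aligning to mm10 and counting with Cell Ranger. Per the labels this was version 3.1.0, and the file headers name 3.1.0 for the 4 Col1a1+ libraries and 6.1.2 for the library labelled VitA-Col1a1-. All barcodes in the tables were kept as cells. No doublet caller was run, and the 1% of cells with the most UMIs were left out as an alternative. Of the 31053 gene identifiers, 31011 (99.9%) were found in the annotation.

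Counts were summed over cells, divided by the total and scaled to 1000000 (CPM). Levels carry exact Poisson 95% intervals, ratios conditional binomial intervals and shares Clopper-Pearson intervals, all for counting error only. A count of 0 allows up to 3 UMIs. With 1 library per group no test was made, and a call means at least 2-fold with an interval that excludes 1, at a mean of at least 2 CPM. The call rule was tested on simulated counts. Each library was clustered by itself (2000 variable genes, 30 principal components, 15 neighbours, Leiden resolution 1, seed 7), and a cluster was called mesenchymal-like where stellate, portal fibroblast or smooth muscle markers led and no other list was well found. Clusters are rebuilt, so their names may differ from the study's. Levels by class used classes of at least 50 cells unless the number is given, and by Acta2 and Col1a1 at least 20. From each pathway list at most 3 called genes per direction and gate are named, and for likeness the 3 genes of highest correlation at a mean of at least 10 CPM.

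The members and lists were chosen with earlier results of these data known. Alternatives were edgeR TMM factors, median-of-ratios factors, other filters, folds, depths and sets of cells. Clustering used scanpy 1.11.5 with igraph 0.11.9 and anndata 0.12.19, intervals used scipy 1.17.1, and the rest used R 4.3.3 with edgeR 4.0.16 and Python 3.11.15 with pandas 2.3.3, matplotlib 3.10.9 and numpy 2.4.6.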

Additional observations from a re-analysis of the deposited data

Results flagged for a closer look

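For 3 of the members that passed the minimum of 2 CPM in both treatments, the ratio of the VitA- gate to the VitA+ gate lay on opposite sides of 1. Tead4, under the minimum in chow, was at 2.23 against 1.95 CPM in DEN+WAD and 1.6 against 2.12 CPM in chow. Tead1 was at 0.946 in DEN+WAD and 1.2 in chow, Cyr61 at 1.05 and 0.797, and Ankrd1 at 3.82 and 0.52. With 1 library per group the difference between the treatments was not tested. In mesenchymal-like cells the Tead1 ratios were 1.02 and 1.16 and the Ankrd1 ratios 3.69 and 23.7, no longer on opposite sides, while those of Cyr61 were 1.13 and 0.782. In stellate-like cells the chow Ankrd1 ratio was 3.27 with an interval that included 1 (0.678 to 31.1, on 9 against 2 UMIs).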

How the results depend on the processing

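Every group holds 1 library, so no replicate could be left out. No paired analysis was possible because each group holds 1 library and no test was made. Of 160 alternative values of the 20 counts of members called, 137 were within 1.5 times the reported count and 23 were not. The former include 3 rather than 2 members higher in the VitA- gate of chow (Wwtr1, Ctgf and Ankrd1) in mesenchymal-like cells, in Lrat-positive cells and in cells with no Epcam, Krt19 or Krt7 UMI. For DEN+WAD against chow in the VitA+ gate, the count higher went from 0 to 1 under TMM, median-of-ratios factors, a fold of 1.5 and, chosen after seeing the data, in cells at or under the median immediate-early share (Ctgf each time), and to 1 in mesenchymal-like and in Lrat-positive cells (Ankrd1). It went to 2 in cells with no Epcam, Krt19 or Krt7 UMI (Ctgf and Ankrd1), also chosen after seeing the data. The count lower went from 1 to 0 in those last 3 sets of cells, where the Ankrd1 log2 ratio reversed to 3.31, 3.20 and 3.11. In the VitA- gate a fold of 1.5 gave 1 higher (Cyr61) and 1 lower (Tead3). For the VitA- against the VitA+ gate in chow, 1 member rather than 2 was higher under TMM and at low immediate-early share, and 1 rather than 0 (Ankrd1) was lower under these, under median-of-ratios factors and under the mean of per-cell CPM. For cells with both Acta2 and Col1a1, thinning to 2000 UMIs gave 1 higher (Tead3) in VitA-Col1a1+ chow. In VitA-Col1a1+ DEN+WAD 0 members were lower in mesenchymal-like cells and in cells with Lrat and no Myh11, Pecam1 or Ptprc UMI, and in the library labelled VitA-Col1a1- 2 and 3 were higher in these, where the Cyr61 log2 ratio reversed to -0.27 in mesenchymal-like cells. The causes were not tested.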
